A study of Homo sapiens with 6 samples.

Results

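This account covers 45 genes of the lysosome, out of 11387 genes with listed transcripts, in 92.1 cells with and without knockdown of ALKBH3. They were taken from a named list of lysosomal genes that was chosen with earlier results of these data known, and all 45 were listed. They comprise 7 membrane proteins, 20 hydrolases, 2 lumenal cofactors, the transcription factor TFEB and 15 genes of the proton pump (V-ATPase), of which 5 encode V0 subunits, 8 encode V1 subunits and 2 encode accessory proteins. The 92.1 line is an established human ocular melanoma line, grown here in medium with serum. The 3 controls carry the label NC and the genotype WT, the other 3 the label shALKBH3 and an ALKBH3 knockdown genotype, where sh is the usual prefix for a short hairpin RNA. ALKBH3 removes methyl groups from alkylated nucleic acids. The labels do not say whether NC cells carry a control hairpin, how many hairpins or clones were used, or whether replicates were grown separately. The p-values therefore describe the spread between these libraries only, which may be technical.

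Lysosomes break down material from endocytosis and autophagy with hydrolases that work at acid pH. The V-ATPase makes that acidity: its V1 part, in the cytosol, splits ATP, and its V0 part, in the membrane, carries protons into the lumen. Heavily glycosylated membrane proteins line the inner face of the organelle. TFEB and its relatives TFE3 and MITF bind a short promoter element shared by many lysosomal genes, and melanocytes build their melanosomes from the same endolysosomal system.

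Expression was given as FPKM, fragments per kilobase of transcript scaled to the library's mapped fragments, and a gene's listed transcripts were added up. Sequencing depth is unknown. The listed FPKM summed to between 340950 and 361268 in NC and between 326875 and 333987 in shALKBH3. ALKBH3 itself was at 10.5, 10.6 and 9.19 FPKM in NC replicates 1, 2 and 3 and at 3.286, 3.601 and 4.241 FPKM in the shALKBH3 ones (limma log2 difference -1.24, adjusted p = 0.0079). Its adjusted p was 0.051 when NC replicate 1 was left out and 0.063 when only the gene's top transcript was used, both above the threshold of 0.05. Of 14 melanosome and melanocyte genes 5 were listed (MITF, GPNMB, GPR143, RAB27A and RAB38). The other 9 (MLANA, PMEL, TYR, TYRP1, DCT, SOX10, OCA2, S100B and MC1R) had no listed transcript and so were not analysed here. Every listed transcript had a higher group mean of at least 0.5 FPKM, and why these 9 are missing was not tested. Of 12 macrophage genes only CSF1R was listed, at 0.697 to 1.08 FPKM in NC and 0.583 to 0.726 FPKM in shALKBH3, and the other 11 were not analysed here.

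CD68 was the one lysosomal gene of the 45 that passed the test, and it rose to 2.21 times its control level in the knockdown libraries. None of the 45 was called lower. The 20 hydrolases and the 13 core V-ATPase subunits among the 45 had median differences near 0. This holds for these genes only, since 28 other lysosomal enzymes had a median log2 difference of 0.24, with 0 called. LAMP1, LAMP2 and CD63, which are the most used lysosomal membrane markers beside CD68, did not pass the test. The limma test used log2(FPKM + 1) and covered the 10475 genes whose mean reached 1 FPKM, among them all 45 members. At an adjusted p under 0.05 it called 1 of the 45 members (2.22%), where it called 1.76% of all genes tested (1.28% higher and 0.477% lower). Among the 44 other members 3 had an unadjusted p under 0.05 (LAMP2 and CTSC higher, ATP6V0C lower), where 17.1% of all genes tested reached that level. The share of members called is therefore close to the background, and the result below is one about CD68 and not about the group.

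CD68 encodes macrosialin, a glycosylated membrane protein of late endosomes and lysosomes that is related to the LAMP proteins and is widely used to stain macrophages. It was at 14.7, 15.4 and 18.9 FPKM in NC replicates 1, 2 and 3 and the shALKBH3 replicates held 33.75, 37.42 and 37.12 FPKM. The lowest knockdown library lay well above the highest control. The group means were 16.3 ± 2.23 and 36.1 ± 2.04 FPKM (SD, 3 libraries each), a ratio of 2.21. The log2 rise was 1.10 (SE 0.114, 95% interval 0.83 to 1.38, limma adjusted p = 0.010). Its size held between 1.04 and 1.21 when any 1 library was left out. In bulk RNA a change in the make-up of the cells and a change per cell cannot be told apart. The adjusted p rose above 0.05 on leaving out NC replicate 1 (0.051), shALKBH3 replicate 2 (0.063) or shALKBH3 replicate 3 (0.071), which ends the call.

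The rise of CD68 was called in the more abundant of its 2 main transcripts. The transcript of 1878 nucleotides (ENST00000250092), which made up 78.5% of the gene's FPKM, was at 11.46, 11.89 and 15.01 FPKM in NC and at 29.45, 26.9 and 28.8 FPKM in shALKBH3. Tested on its own among 19698 transcripts it passed (log2 1.10, limma adjusted p = 0.047), as the single one of 111 tested member transcripts to do so, where 0.472% of all transcripts passed. The transcript of 1771 nucleotides (ENST00000380498) was at 2.51, 2.19 and 3.27 FPKM in NC and at 3.205, 9.89 and 7.09 FPKM in shALKBH3, with overlapping groups (log2 0.98, adjusted p = 0.50). The third transcript, of 582 nucleotides, was between 0.592 and 1.30 FPKM in all 6 libraries.

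**Figure D1:**
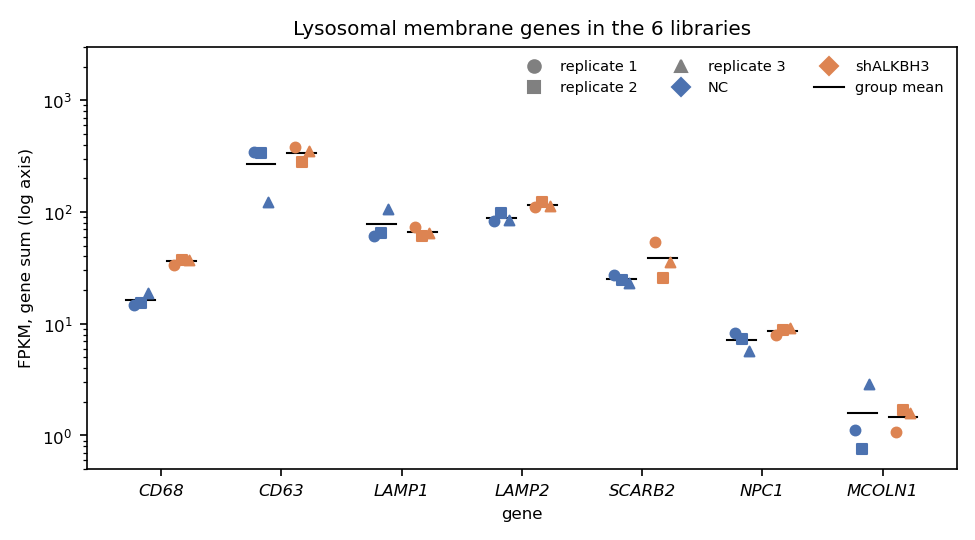
FPKM (gene sums, log axis) of the 7 lysosomal membrane genes; blue points are NC and orange points shALKBH3, the marker shape gives the replicate and the black line the group mean. CD68 is at 14.7 to 18.9 FPKM in NC and 33.75 to 37.42 in shALKBH3, and NC replicate 3 stands apart for CD63 and LAMP1.

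The gene lies on chromosome 17 just after EIF4A1, on the same strand, and GENCODE annotates a transcript that runs through both genes (AC016876.2), which is not among the listed ones. EIF4A1, a translation initiation helicase gene, was at 70.0, 96.4 and 91.2 FPKM in NC and at 126, 134 and 93.8 FPKM in shALKBH3. Its groups overlapped, since shALKBH3 replicate 3 lay below NC replicate 2, and it did not pass (log2 0.45, limma adjusted p = 0.28). The next gene upstream, SENP3, was at 11.7 to 11.8 FPKM in NC and 8.75 to 11.1 FPKM in shALKBH3 (log2 -0.25, adjusted p = 0.30), without overlap. These neighbours were chosen after the CD68 values were seen, and their part in the CD68 result was not tested.

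The promoter of CD68 is shown because it is the member that was called, beside stretches of 3 members that hold the full TFEB element. The sequences are from RefSeq on build GRCh38.p14, which is not the build named by the submitters, and are printed 5′ to 3′ on the gene's own (plus) strand. The CD68 window runs from 250 bases before the start site to the 50 after it (chr17:7579388-7579687). Capitals mark its match to GAAANGAAA, on the reverse strand, a motif chosen after this window had been read.
CD68: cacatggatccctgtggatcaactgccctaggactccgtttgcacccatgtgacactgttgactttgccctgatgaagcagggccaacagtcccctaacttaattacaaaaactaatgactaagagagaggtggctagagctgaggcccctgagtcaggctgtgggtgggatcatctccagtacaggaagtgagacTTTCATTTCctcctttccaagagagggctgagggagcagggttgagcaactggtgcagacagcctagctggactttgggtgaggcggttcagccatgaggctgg
In the other 3 (MCOLN1 at chr19:7522583-7522642, GAA at chr17:80101478-80101537 and ATP6V1G1 at chr9:114587684-114587743) capitals mark the full 10-base consensus of the element bound by TFEB. The GAA window holds 2 such matches, of which 1 is shown.
MCOLN1: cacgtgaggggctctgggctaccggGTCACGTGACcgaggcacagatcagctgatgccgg
GAA: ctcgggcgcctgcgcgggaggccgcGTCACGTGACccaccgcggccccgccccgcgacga
ATP6V1G1: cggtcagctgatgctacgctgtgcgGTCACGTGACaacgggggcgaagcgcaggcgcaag

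Promoter windows were matched for 34 of the 45 members and searched on both strands. The 3 forms of the TFEB element are nested, so a match to a longer one is also a match to the shorter ones. CACGTG was found in 10 of the 34 members (29.4%) and in 7.43% of all 27305 promoters. Those promoters were not limited to genes listed in these libraries, as the members are, so the shares compare unmatched sets. TCACGTG was found in 9 (26.5%) against 3.82%, and the 10-base consensus printed in capitals above in 3 (8.82%) against 0.381%. The 10 were ATP6V0B, ATP6V0D1, ATP6V1G1, CD63, CTSA, CTSD, GAA, LAMP1, MCOLN1 and NEU1. None of these 10 passed the limma test (0 at an unadjusted p under 0.05). Their median log2 difference was -0.13, against 0.06 in the 24 members whose window holds no CACGTG. CD68 is among those 24. Neither median was corrected for transcript length or GC content, and library trends with both ran partly with the groups. The part of these trends in the gap between the medians was not tested. A pair of GAAA motifs was added with the values known. GAAA and GAAA with 2 bases between them, the spacing of the interferon-response type, was found in 0 of the 34 members, CD68 included. It was found in 3.65% of all promoters. GAAANGAAA does not have that spacing and was looked for after the CD68 window had been read. It was found in CD68 alone of the 34, 54 bases before its start site, and in 3.22% of all promoters. A match is a description of these letters and not evidence of binding.

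The other 6 membrane genes did not pass the test, and their median log2 difference was 0.31. LAMP2, a main glycoprotein of the lysosomal membrane with a role in autophagy, was at 83.1, 99.0 and 84.6 FPKM in NC and at 111, 124 and 113 FPKM in shALKBH3. Every knockdown library lay above every control, but the difference did not pass (log2 0.38, 95% interval 0.15 to 0.61, limma adjusted p = 0.13). Its transcripts were uneven. The one of 1867 nucleotides was at 26.4, 53.2 and 42.6 FPKM in NC and at 63.3, 73.4 and 64.3 FPKM in shALKBH3 (log2 0.76, adjusted p = 0.47). The one of 4030 nucleotides was at 39.1 to 53.0 FPKM in NC and 42.6 to 44.3 FPKM in shALKBH3 (log2 -0.03). Its splice forms differ in their short cytosolic tails.

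SCARB2, which encodes LIMP-2, the receptor that carries glucocerebrosidase to lysosomes, was at 27.4, 24.9 and 23.2 FPKM in NC and at 54.0, 25.5 and 35.6 FPKM in shALKBH3 (log2 0.53, adjusted p = 0.36). Its knockdown libraries ranged widely and overlapped the controls, and the value was 0.25 without shALKBH3 replicate 1. CD63, a tetraspanin of late endosomes and of early melanosomes, was the most abundant of the 7, at 342, 338 and 124 FPKM in NC and at 384, 279 and 351 FPKM in shALKBH3. NC replicate 3 held less than the other controls, and the log2 difference of 0.46 (adjusted p = 0.58) was -0.02 without that library. LAMP1 went the other way in the same library, at 61.0, 64.5 and 107 FPKM in NC and 73.3, 60.4 and 65.1 FPKM in shALKBH3 (log2 -0.18, adjusted p = 0.71), and had 0.07 without NC replicate 3. NPC1, which exports cholesterol from lysosomes, ranged from 5.70 to 9.11 FPKM over the 6 libraries. The calcium channel gene MCOLN1 ranged from 0.761 to 2.88 FPKM.

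CD68 was set against these 6 genes within each library, as log2(FPKM + 1) of CD68 minus their mean. The value was -1.01, -0.91 and -0.59 in the NC libraries. In the knockdown libraries it was -0.14, 0.19 and 0.04. CD68 thus lay below the mean of the other membrane genes in all 3 controls and near it in the knockdown libraries, with no overlap between the groups. The group means were -0.84 ± 0.22 and 0.03 ± 0.17 (SD, 3 libraries each), a shift of 0.87, and 0.67 with the most abundant transcript of each gene. The mean of the other 6 genes itself differed by 0.24 between the groups, against 1.10 for CD68.

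**Figure D2:**
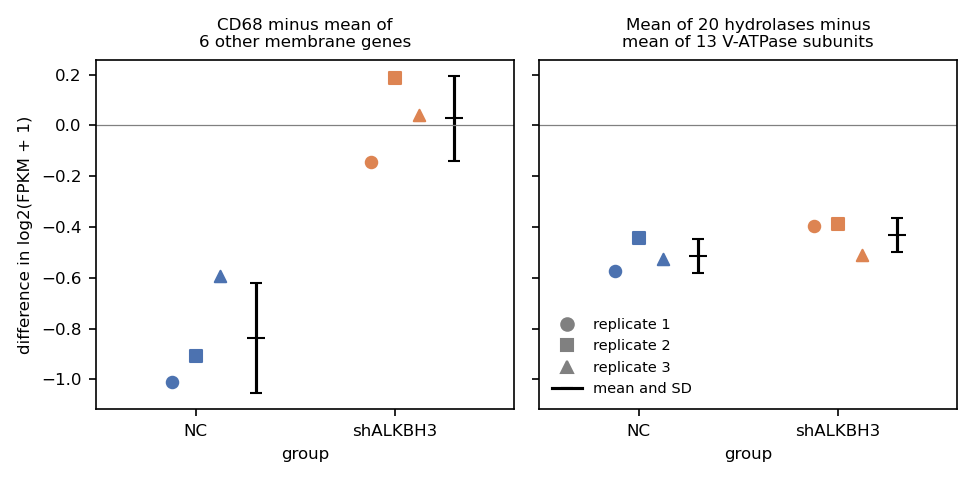
Difference in log2(FPKM + 1) within each library, for CD68 minus the mean of the 6 other membrane genes (left) and the mean of the 20 hydrolases minus the mean of the 13 V-ATPase subunits (right), by group; points are libraries, and the bars give the mean and SD. On the left NC lies at -1.01 to -0.59 and shALKBH3 at -0.14 to 0.19, while on the right the groups overlap.

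Hydrolases did not pass the test in either direction (0 of 20 by limma). At an unadjusted p under 0.05 there was 1 of the 20, against the 17.1% of all genes. Their log2 differences ran from -0.63 to 0.29 with a median of 0.05, where the median of all genes tested was -0.01. For 17 of the 20 the 95% interval lay within a 2-fold difference either way, and for 12 within 1.5-fold, on the log2(FPKM + 1) scale. Of all 10475 genes tested, 8672 had an interval within 2-fold and 5505 within 1.5-fold. CTSB, a cysteine protease and the most abundant hydrolase gene, was among the steadiest genes of the group, at 319, 316 and 314 FPKM in NC and 321, 298 and 316 FPKM in shALKBH3 (log2 -0.02, 95% interval -0.17 to 0.13). CTSC, the protease that activates granule serine proteases, was at 122, 134 and 140 FPKM in NC and at 156, 163 and 155 FPKM in shALKBH3. Its knockdown libraries all lay above the controls without passing (log2 0.26, limma adjusted p = 0.19).

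TPP1, a tripeptidyl peptidase, was at 30.24, 31.75 and 27.15 FPKM in NC and at 35.5, 35.1 and 32.4 FPKM in shALKBH3 (log2 0.20, adjusted p = 0.31), again without overlap. GUSB, which encodes beta-glucuronidase, was at 25.04, 12.8 and 13.8 FPKM in NC and at 8.31, 12.99 and 10.05 FPKM in shALKBH3. It had the lowest log2 difference of the 45 (-0.63, 95% interval -1.31 to 0.05, adjusted p = 0.32), with NC replicate 1 far above the rest, and -0.34 without that library. CTSZ, a carboxypeptidase gene, was at 129.2, 130.8 and 136.4 FPKM in NC and at 127.5, 103.6 and 126.7 FPKM in shALKBH3 (log2 -0.15, adjusted p = 0.47). Its groups did not overlap, and the value was 0.03 after a correction for transcript length and GC content and -0.055 without shALKBH3 replicate 2.

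LIPA, the acid lipase gene that frees cholesterol from its esters, was at 39.7, 39.9 and 40.2 FPKM in NC and at 42.5, 46.9 and 44.9 FPKM in shALKBH3 (log2 0.16, adjusted p = 0.32). The sum covers 2 main listed transcripts with opposite values. The one of 2527 nucleotides was at 33.9 to 35.9 FPKM in NC and at 37.2 FPKM in shALKBH3 replicate 3, but listed at 0 in shALKBH3 replicates 1 and 2. The one of 2782 nucleotides was at 3.70 to 5.52 FPKM in NC and at 42.1, 45.9 and 6.77 FPKM in shALKBH3. The 2 values traded places within the knockdown group, and neither transcript passed (adjusted p = 0.53 and 0.44). LIPA also spans the interferon-induced genes IFIT1, IFIT2 and IFIT3 on the opposite strand, which rose by 1.51, 1.93 and 1.54 on the log2 scale. This overlap is of annotated gene spans, and shared exons with the listed LIPA transcripts were not looked for. Whether strand was used in estimating FPKM is not given in the sources used here. Any part of these genes in the LIPA values was not tested.

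The remaining 14 hydrolase genes differed in how steady they were. GLA, HEXA, IDS, CTSL, GLB1 and CTSA, which act on glycolipids, glycosaminoglycans and proteins, varied by 7.64% to 9.93% over the 6 libraries (coefficient of variation). MAN2B1, an alpha-mannosidase gene, ran from 2.60 to 12.5 FPKM, and PPT1, the palmitoyl thioesterase gene, from 3.11 to 13.6 FPKM, with both extremes of MAN2B1 in shALKBH3 and both of PPT1 in NC. NAGLU, SGSH and SMPD1 were the least abundant, with means under 5 FPKM.

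The lumenal cofactors were abundant and differed little. PSAP, whose product is cut into the saposins that present lipids to hydrolases, was the most abundant of the 45 genes, at 488, 543 and 507 FPKM in NC and 489, 490 and 514 FPKM in shALKBH3 (log2 -0.04, 95% interval -0.20 to 0.12). NPC2, a cholesterol carrier, was at 167.5, 177.5 and 181.3 FPKM in NC and at 166, 151 and 152 FPKM in shALKBH3. Its knockdown libraries all lay below the controls without passing (log2 -0.16, limma adjusted p = 0.31), and the same length and GC correction gave 0.01.

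TFEB was barely above the level needed for the test. It was at 1.41, 1.30 and 1.69 FPKM in NC and at 1.98, 0.135 and 1.77 FPKM in shALKBH3. Only shALKBH3 replicate 2 was low, and the log2 difference of -0.22 (adjusted p = 0.78) was 0.22 without it and -0.01 with the length and GC correction. Its relatives were more abundant: TFE3 was at 15.6 to 16.4 FPKM in NC and 13.6 to 17.0 FPKM in shALKBH3 (log2 -0.12, adjusted p = 0.60). MITF, the melanocyte factor, was at 7.90, 9.53 and 3.29 FPKM in NC and at 11.1, 14.0 and 10.3 FPKM in shALKBH3, without overlap (log2 0.78, adjusted p = 0.31). NC replicate 3 was its lowest library, and the difference was 0.39 without it.

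**Figure D3:**
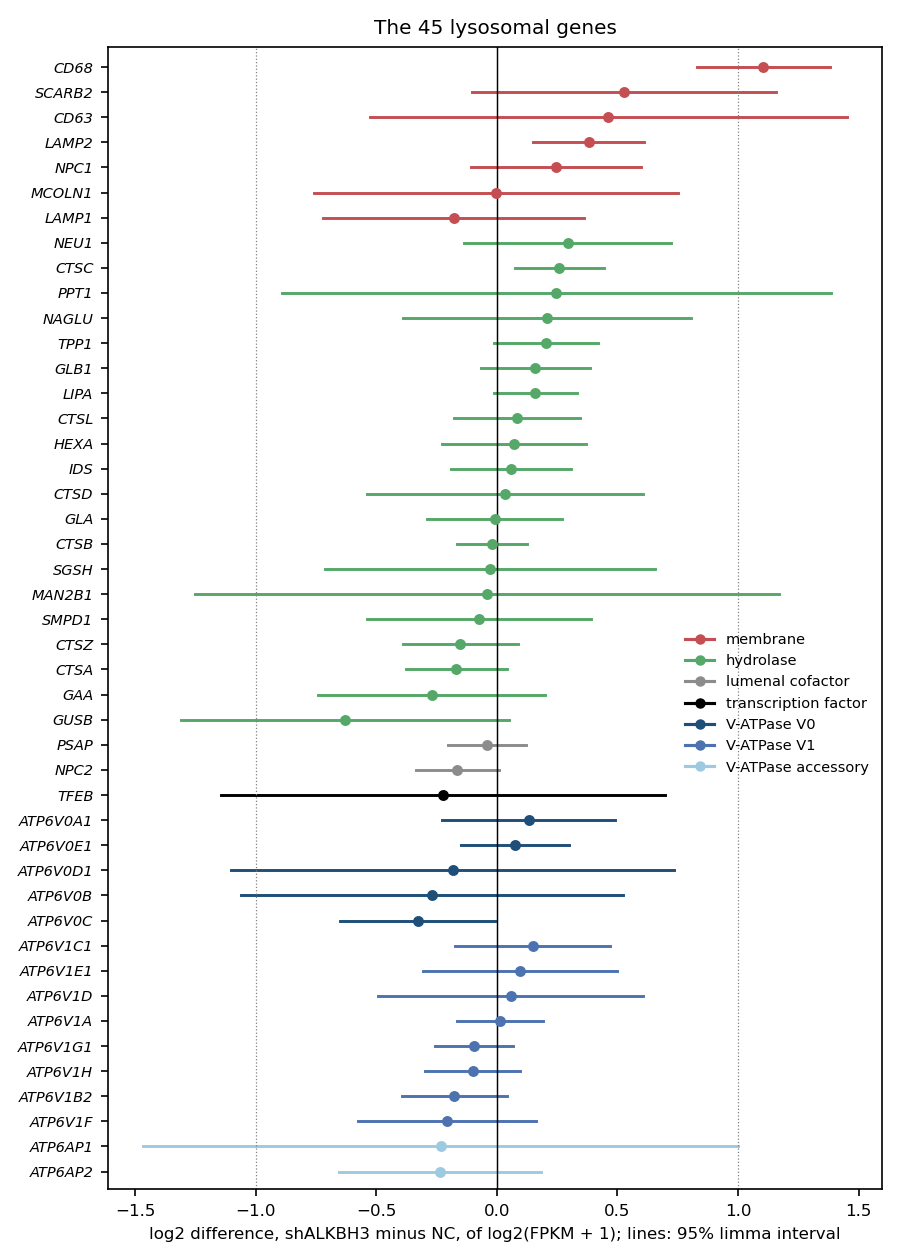
Log2 difference of each of the 45 genes (shALKBH3 minus NC, on log2(FPKM + 1)) with its 95% limma interval, coloured by role; dotted lines mark a 2-fold difference. CD68 has an interval of 0.83 to 1.38, and the hydrolases and V-ATPase subunits lie on both sides of 0.

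The proton pump genes did not pass in either direction (0 of 15 by limma). At an unadjusted p under 0.05 there was 1 of the 15, against the same 17.1%. The 13 core subunits had log2 differences from -0.33 to 0.15, with a median of -0.09. Correcting for transcript length and GC content brought that median to 0.003. Leaving out NC replicate 3 brought it to -0.005, and leaving out shALKBH3 replicate 2 to -0.006. ATP6V0C, which encodes the proteolipid of the rotating membrane ring, had the smallest p of the class. It was at 68.3, 72.5 and 89.8 FPKM in NC and at 67.8, 59.7 and 54.8 FPKM in shALKBH3 (log2 -0.33, 95% interval -0.65 to -0.01, limma adjusted p = 0.29). Its highest knockdown library lay just under its lowest control. The same correction left a log2 difference of -0.03 (adjusted p = 0.87), and without NC replicate 3 it was -0.21. ATP6V0E1, a small V0 subunit gene, was the most abundant of the class, at 72.90, 67.05 and 80.39 FPKM in NC and 76.59, 82.24 and 73.05 FPKM in shALKBH3 (log2 0.07, adjusted p = 0.71). ATP6V0A1, the V0 subunit that forms the proton path with the ring, ranged from 5.26 to 7.94 FPKM.

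In the V1 part, ATP6V1A, the catalytic subunit, was at 21.9, 20.9 and 22.4 FPKM in NC and 21.45, 22.59 and 21.82 FPKM in shALKBH3, a range of 1.08-fold over the 6 libraries. ATP6V1B2, its partner in the ATP-splitting head, was at 39.2, 40.6 and 44.7 FPKM in NC and 39.5, 34.6 and 35.7 FPKM in shALKBH3 (log2 -0.18, adjusted p = 0.37). ATP6V1G1, part of the stalk, was at 71.0, 67.4 and 70.8 FPKM in NC and 66.7, 66.5 and 62.7 FPKM in shALKBH3 (log2 -0.09, adjusted p = 0.50). The last of these did not overlap between groups, but its whole range was 1.13-fold. All 8 V1 subunit genes had a 95% interval within a 2-fold difference, as did 3 of the 5 V0 genes and 8672 of all 10475 genes tested.

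The accessory protein genes were less even. ATP6AP1, which helps to assemble V0, was at 7.0, 7.27 and 20.4 FPKM in NC and at 9.98, 4.47 and 13.5 FPKM in shALKBH3 (log2 -0.23, adjusted p = 0.83). It had 0.23 when NC replicate 3 was left out and 0.17 when shALKBH3 replicate 2 was. Its most abundant listed transcript was at 20.3 FPKM in that library and at 1.20 and 2.06 FPKM in NC replicates 1 and 2. ATP6AP2, also known as the prorenin receptor, ranged from 11.6 to 17.6 FPKM.

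Hydrolases and V-ATPase subunits were compared within each library as the difference of their mean log2(FPKM + 1), over 20 hydrolases and the 13 core subunits. The value was -0.57, -0.44 and -0.53 in the NC libraries. In the knockdown libraries it was -0.40, -0.39 and -0.51. The groups overlapped. Their means were -0.52 ± 0.06 and -0.43 ± 0.07 (SD, 3 libraries each), and the shift of 0.08 was about as large as the spread within a group. With the most abundant transcript of each gene it was -0.01. The hydrolase mean moved by 0.02 and the V-ATPase mean by -0.07.

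Among all 45 members 9 (20%) had groups that did not overlap, against 24.9% of all genes tested. In 5 of them (CD68, LAMP2, CTSC, TPP1 and LIPA) shALKBH3 lay above, and in 4 (CTSZ, NPC2, ATP6V0C and ATP6V1G1) below. Apart from CD68 the size of these differences was small, from -0.33 to 0.38 on the log2 scale.

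**Figure D4:**
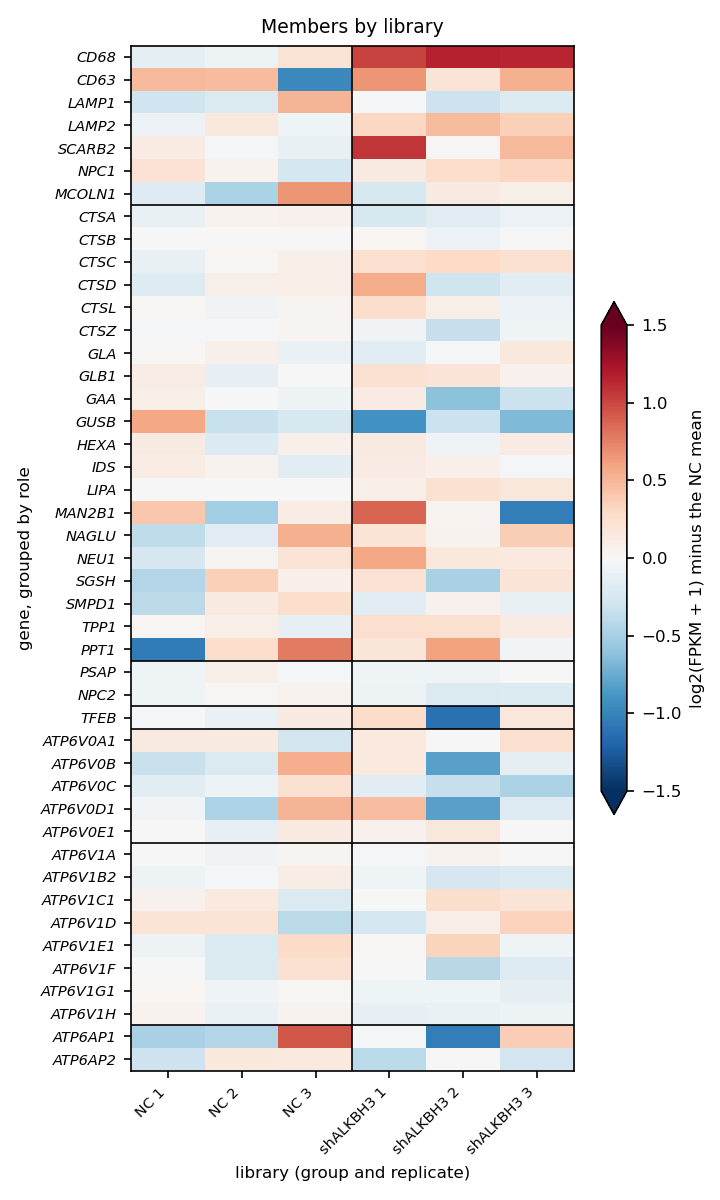
Log2(FPKM + 1) of the 45 genes in each library minus the gene's NC mean (colour, red higher and blue lower), with genes grouped by role between the horizontal lines. CD68 is red in all 3 knockdown libraries, while NC replicate 3 and shALKBH3 replicate 2 hold many of the single strong colours.

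The libraries differed in how often they held a member's extreme value. Every gene has a highest and a lowest library, so each library can hold some extremes by construction. The same counts over all genes tested were not made. NC replicate 3 was the highest or the lowest of the 6 libraries for 22 of the 45 genes, shALKBH3 replicate 2 for 21 and shALKBH3 replicate 1 for 18, against 12 for NC replicate 1, 9 for NC replicate 2 and 8 for shALKBH3 replicate 3. Across the 45 genes, the deviation of NC replicate 3 from the mean of the 6 libraries correlated with GC content (Spearman rho 0.45), as did those of shALKBH3 replicate 1 (0.34) and, inversely, of shALKBH3 replicate 2 (-0.56). Over all genes tested the GC values were 0.06, 0.07 and 0.35 in NC and 0.18, -0.42 and -0.25 in shALKBH3. The values for transcript length were -0.18, 0.07 and -0.40 in NC and 0.03, 0.31 and 0.27 in shALKBH3. Both trends thus ran partly with the groups. Genes share their libraries and are not replicates. The part of length or GC content in any member's difference was not tested beyond the correction quoted. After that correction CD68 had a log2 rise of 1.22 (limma adjusted p = 0.0065).

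Further genes of the lysosomal system came from 6 lists of other enzymes, other membrane proteins, other V-ATPase genes, enzyme sorting, nutrient sensing and autophagy. None of the 118 tested genes of these lists passed in the main test (limma), where 1.76% of all genes tested did. With array weights 7 passed (CTSO, FUCA2, IGF2R, OPTN, OSTM1, SLC38A9 and SORT1), where 4.58% of all genes tested did. Quantile normalization called FUCA2 alone. In the main test there were 23 higher ones and 2 lower ones at an unadjusted p under 0.05. Of all 10475 genes tested 17.1% reached that level in either direction, 941 higher and 854 lower. Among the 28 other lysosomal enzymes 10 were higher at that level and 0 lower. The other lysosomal enzymes did not pass: 22 of 28 were above 0 on the log2 scale (median 0.24), and 13 had groups that did not overlap (46.4% against 24.9% of all genes). Corrected for length and GC content that median was 0.23, with 1 gene (FUCA2) then called, and it was 0.20 without NC replicate 3 and 0.14 on the log2(FPKM + 5) scale. FUCA2, an alpha-fucosidase gene, was at 98.1, 97.6 and 98.1 FPKM in NC and at 121, 118 and 118 FPKM in shALKBH3 (log2 0.28, adjusted p = 0.088). CTSO, a cysteine protease gene, was at 7.85, 8.75 and 7.57 FPKM in NC and at 11.5, 13.2 and 11.03 FPKM in shALKBH3 (log2 0.51, adjusted p = 0.090).

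Other lysosomal membrane genes had a median of 0.15 (0 of 21 passed), which was 0.06 with the length and GC correction, 0.016 without NC replicate 2 and -0.015 with array weights. CD164, an endolysosomal sialomucin gene, was at 61.2, 32.0 and 35.5 FPKM in NC and at 88.87, 83.79 and 95.02 FPKM in shALKBH3, a ratio of means of 2.08 that did not pass (log2 1.10, limma adjusted p = 0.099). It passed without NC replicate 1 (0.022). OSTM1, the partner of the lysosomal chloride transporter, was at 5.997, 6.015 and 6.103 FPKM in NC and at 8.70, 8.91 and 8.07 FPKM in shALKBH3 (log2 0.44, adjusted p = 0.082). Other V-ATPase genes had a median of 0.13 (0 of 12 passed). It was 0.07 without NC replicate 1, 0.05 with the length and GC correction and -0.016 with the most abundant transcript. At a minimum mean of 5 FPKM it was -0.158, but only 3 genes of the list were then tested. TM9SF2 had a log2 difference of 0.22 (adjusted p = 0.17; 0.14 with that correction). WDR7, a regulator of pump assembly, had 0.96 (adjusted p = 0.22), and 0.64 without NC replicate 3.

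Enzyme sorting genes had a median of 0.02 (0 of 22 passed). The sorting receptor genes SORT1 and IGF2R had log2 differences of 0.34 and 0.46 (limma adjusted p = 0.15 for both), each without overlap, and 0.20 and 0.255 with the length and GC correction. Nutrient-sensing genes had a median of 0.01 (0 of 17 passed). LAMTOR2, part of the complex that holds the Rag GTPases on lysosomes, had -0.42 and RRAGC, one of those GTPases, 0.26 (adjusted p = 0.17 and 0.22). With that correction LAMTOR2 had -0.17. Autophagy genes had a median of 0.01 (0 of 19 passed), with the receptor gene OPTN at 0.35 and GABARAPL1 at 0.40 (adjusted p = 0.11 and 0.20). OPTN had 0.21 with its most abundant transcript alone. In the melanosome list GPNMB, a glycoprotein of melanosomes and lysosomes, was at 86.8, 82.5 and 56.9 FPKM in NC and at 101, 108 and 106 FPKM in shALKBH3 (log2 0.49, adjusted p = 0.22; 0.31 without NC replicate 3), and 0 of 5 genes passed.

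**Figure D5:**
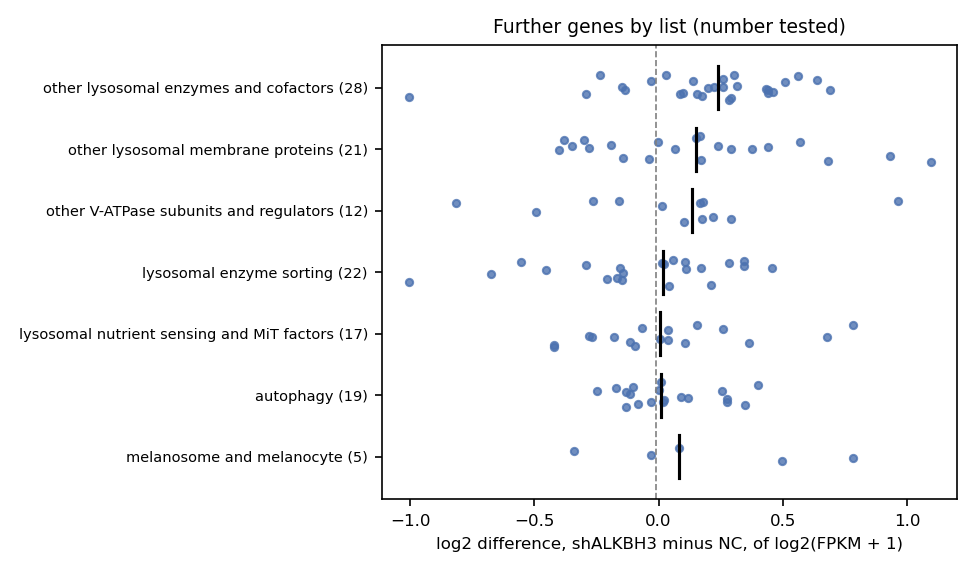
Log2 differences (shALKBH3 minus NC, on log2(FPKM + 1)) of genes outside the 45, by list, with the number tested in brackets; points are genes, black bars list medians and the dashed line the median of all genes tested. The median of the other lysosomal enzymes is 0.24, and those of sorting, nutrient sensing and autophagy genes lie between 0.01 and 0.02.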

How the data were processed

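Total RNA of 6 libraries was fragmented, random-primed and given a dUTP second strand, per the labels' protocols. The authors deposited transcript FPKM, per the file headers, in 1 table per library. The submitters' processing notes name hg19, HTSeq 0.6.0 and DESeq2 without their roles. The sources used here do not state the aligner, the FPKM estimator or the annotation. All tables hold one common set of 28900 transcripts, for each of which the higher group mean is at least 0.5 FPKM.

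Identifiers without version were matched to GENCODE 29 (28796 matched, 104 left out) and FPKM were summed per gene, without rescaling. Low values of genes with a single listed transcript showed no steps of whole reads, so no count model was run. Genes averaging 1 FPKM or more were tested on log2(FPKM + 1) with limma 3.58.1 in R 4.3.3 (variance trend, two-sided, Benjamini-Hochberg over 10475 genes, threshold 0.05), which was first tested on simulated data. On the simulated data it recovered 38.0% of 1.5-fold, 62.7% of 2-fold and 85.2% of 4-fold changes, drawn among more abundant genes. A gene that was not called may still have changed. Fold changes understate those of low genes. Tables and plots used Python 3.11.15, pandas 2.3.3, numpy 2.4.6 and matplotlib 3.10.9.

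The members, lists, tests and alternatives were chosen with earlier results of these data known. Values per library are given for CD68, TFEB, members past the threshold, the 3 smallest p-values and the most abundant gene of the membrane, hydrolase and V-ATPase classes, and both cofactors. Outside the members, ALKBH3 and the 2 genes with the smallest p of each list were named. Other genes were named after their values were seen. Scores over members have no p. Of the 45 members 29 overlap another annotated gene, 10 of them a listed one.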

Additional observations from a re-analysis of the deposited data

How the results depend on the processing

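The log2 rise of CD68 kept its direction under all 19 alternatives (0.95 to 1.22) and passed the limma threshold under 15. It missed it with the replicate number as a block (adjusted p = 0.071) and without NC replicate 1, shALKBH3 replicate 2 or shALKBH3 replicate 3 (0.051, 0.063 and 0.071). Adjusted p ran from 0.0027 to 0.071. Same-numbered libraries did not deviate together (r -0.09, 0.08 and -0.01 for replicates 1, 2 and 3). These values were not corrected for length and GC content. They cannot settle whether the numbers pair libraries, which the labels do not say. Members called higher numbered 1, against 0 with the replicate block, 2 with array weights (CD68 and LAMP2) and 0 to 1 when single libraries were left out. Members called lower were 0 throughout these fits.

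Of all genes 134 were higher and 50 lower. The counts were 80 and 25 with the most abundant transcript, 320 and 160 with array weights, 17 and 3 with the replicate block, and 39 and 5 with the replicate block and the correction for length and GC content together. Fewer were lower with equal sums of listed FPKM (24) or equal sums without mitochondrial genes (27). Leaving out 1 library, and so fitting fewer samples, gave 39 to 87 higher and 9 to 22 lower. With the most abundant transcript the shift of CD68 against the other membrane genes was 0.665 in place of 0.866, and that of hydrolases against V-ATPase subunits -0.009 in place of 0.084.

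Several uncalled members changed sign, and the cause was not tested. CTSB (-0.02) had 0.025 under quantile normalization, 0.074 and 0.053 with equal sums with and without mitochondrial genes, and 0.086 with the length and GC correction, with or without the block. PSAP (-0.04) had 0.121, 0.053, 0.032 and 0.058 in the same order, and 0.008 with array weights. That correction gave 0.025 for ATP6V1G1, 0.008 for NPC2 and 0.029 for CTSZ, also with the block. The most abundant transcript gave -0.053 for ATP6V0E1 and -3.416 for LIPA, whose transcripts traded places. ATP6AP1 had 0.261 with array weights. Without single libraries the values ran from -0.474 to 0.222 for TFEB, -0.021 to 0.708 for CD63, -0.326 to 0.074 for LAMP1, -0.042 to 0.012 for CTSB, -0.076 to 0.000 for PSAP and -0.535 to 0.232 for ATP6AP1.

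TFEB gave no value with a minimum mean of 5 FPKM or as a most abundant transcript, and WDR7 none with that minimum. Sequencing depth is unknown, so no counting limit can be given for low members such as TFEB and MCOLN1.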
